A study of Mus musculus with 12 samples.

Results

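The sirtuins are 7 genes, Sirt1 to Sirt7, found in the count table by matching its Ensembl mouse identifiers to gene symbols in the GENCODE M21 annotation. They are 7 of 53465 genes in the table, and all 7 passed the filter on low counts that left 19830 genes for testing. RNA was sequenced in bulk from mouse bone marrow hematopoietic stem cells (HSCs) that had been sorted and then kept in culture for 2 days. The 4 groups of 3 samples were NR-treated long-term HSCs (LT-HSCs), control LT-HSCs, NR-treated short-term HSCs (ST-HSCs) and control ST-HSCs. NR is nicotinamide riboside, a form of vitamin B3, given at 1 mM and renewed after 24 h, and control cells received none. The medium of all 4 groups was Stemline II, to which SCF (100 ng/ml) and Flt3 (2 ng/ml) had been added, and both populations had been sorted as lineage-negative, Kit+, Sca1+, CD150+ and CD48-. LT-HSCs were sorted as CD34- and ST-HSCs as CD34+. The sources used here do not give the strain, sex or age of the mice. Since the labels name no separate mice or cultures for the samples of a group, the p-values capture the variation among these samples alone, and it may be technical.

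Sirtuins are enzymes that remove acyl groups from lysines, or transfer ADP-ribose, and consume nicotinamide adenine dinucleotide (NAD) as they do so. Cells make NAD from NR, which is why NR culture and sirtuins are often considered together. SIRT1, SIRT6 and SIRT7 act mainly in the nucleus, SIRT2 mainly in the cytosol, and SIRT3, SIRT4 and SIRT5 in mitochondria. Enzyme activity depends on NAD and was not measured here: the values below are transcript levels.

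The NR comparisons turned on Sirt1 and Sirt5, so DNA from the 250 bases before the RefSeq start of each is shown. In each, CACGTG (the E-box read by MYC and related factors) and GGGCGG (the GC box read by SP1-type factors) are in capitals. Both strands were searched, and overlapping matches are counted. Read toward the start, each stretch is cut at the first annotated exon or RefSeq gene span. The bases left out after the cut need not all be exonic. The Sirt1 stretch is 235 bases at chr10:63339051-63339285, on the minus strand of GRCm38.p6, and lies within the GENCODE M21 span of the gene but outside its exons. The Sirt5 stretch is 104 bases at chr13:43365285-43365388, on the plus strand, and ends before the GENCODE M21 start of the gene.
Sirt1: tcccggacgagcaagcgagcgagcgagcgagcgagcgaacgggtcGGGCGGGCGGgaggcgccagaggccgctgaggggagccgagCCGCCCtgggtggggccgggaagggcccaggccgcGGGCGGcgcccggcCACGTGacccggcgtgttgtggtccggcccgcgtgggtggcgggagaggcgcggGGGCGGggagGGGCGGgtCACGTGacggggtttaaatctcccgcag
Sirt5: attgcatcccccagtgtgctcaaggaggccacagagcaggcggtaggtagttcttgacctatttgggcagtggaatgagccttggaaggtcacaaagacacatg
The Sirt1 stretch held 2 CACGTG and 6 GGGCGG matches and was 78.3% G or C. The Sirt5 stretch held 0 of either and was 52.9% G or C, although the full window of 250 bases before its start held 1 GGGCGG. The bases left out were those nearest each start. The Sirt5 stretch is thus the part of its window far from the start, while that of Sirt1 is nearly its whole window. These counts and G or C shares therefore do not compare like with like. Among the 9 windows of 250 bases that RefSeq gives for the 7 sirtuins, only that of Sirt1 held CACGTG, which 6.02% of all 32851 such windows hold. GGGCGG was in 32.7% of all windows and, besides Sirt1 and Sirt5, in windows of Sirt2, Sirt3, Sirt6 and Sirt7. CCGGAAG, an ETS-type motif in 6.91% of all windows, was in a window each of Sirt3, Sirt6 and Sirt7. These matches describe letters only and say nothing of binding.

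The 7 genes lie on 5 chromosomes in GRCm38. By the GENCODE M21 annotation, Sirt1 is at chr10:63319005-63381704 on the minus strand, and Sirt6 is on the same chromosome at chr10:81621785-81627797, also on the minus strand. Sirt2 is at chr7:28766735-28788661 on the plus strand, and Sirt3 at chr7:140863666-140882309 on the minus strand. Sirt4 is at chr5:115478010-115484725 on the minus strand, Sirt5 at chr13:43365496-43395203 on the plus strand and Sirt7 at chr11:120618372-120625240 on the minus strand. Exons of Sirt3 overlap those of Ric8a by 418 bases and those of Psmd13 by 342 bases, both on the opposite strand. Exons of Sirt7 share 124 bases with Mafg on the same strand, those of Sirt1 share 65 bases with the antisense gene Gm16145, and those of Sirt2 share 42 bases with Nfkbib on the opposite strand. The sources used here do not say whether counting used strand, so how reads from the opposite-strand stretches were assigned is not known. Strand would not separate Sirt7 from Mafg. Reads that HTSeq marked as ambiguous stayed out of the gene counts.

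Libraries held 24.6 M to 35.5 M counts in genes. Between 8.69% and 28.5% of a library's reads fell outside annotated features, and the 2 libraries over 20% were sample 3 of the NR LT-HSCs and sample 3 of the NR ST-HSCs. Of the genes behind the sort, Kit, the SCF receptor, was at 1344 to 1716 CPM (counts scaled to library size) in all 12 libraries. Cd34 was at 230 to 270 CPM in the LT-HSC libraries and 606 to 740 CPM in the ST-HSC libraries, so its transcript was not absent from cells sorted as CD34-. Slamf1, which encodes CD150, was at 25.1 to 35.4 CPM in NR LT-HSCs against 35.2 to 43.5 CPM in control LT-HSCs, and at 10.3 to 13.1 CPM in NR ST-HSCs against 17.6 to 20.2 CPM in control ST-HSCs, where the groups did not overlap. Procr, listed with these genes, went the other way, without overlap in either cell type. It was at 17.8 to 20.7 CPM in NR LT-HSCs against 10.9 to 12.02 CPM in control LT-HSCs. In ST-HSCs it was at 5.06 to 10.8 CPM with NR against 1.41 to 2.57 CPM in control. Ly6a, which encodes Sca1, was at 23.2 to 47.6 CPM in LT-HSCs and 5.51 to 10.5 CPM in ST-HSCs. Cd48, whose protein both sorts had excluded, was at 0.259 to 1.55 CPM in LT-HSCs and 1.93 to 6.25 CPM in ST-HSCs. The 6 megakaryocyte and platelet markers summed to 1797 to 2437 CPM in NR LT-HSCs against 2986 to 3410 CPM in control LT-HSCs, and to 1661 to 2184 CPM in NR ST-HSCs against 2936 to 3229 CPM in control ST-HSCs. The 11 myeloid and monocyte markers summed to 433 to 610 CPM in NR LT-HSCs against 419 to 503 CPM in control LT-HSCs, and to 532 to 655 CPM in NR ST-HSCs against 414 to 463 CPM in control ST-HSCs. Much of this sum was Lyz2, at 320 to 383 CPM in NR ST-HSCs against 261 to 276 CPM in control ST-HSCs. Not every member was higher there. Mpo was at 6.43 to 41.4 CPM with NR against 29.4 to 61.9 CPM in control, and the Elane and Ctsg ranges also overlapped. The 8 lymphoid markers summed to 31.1 to 35.7 CPM in NR LT-HSCs against 32.8 to 36.6 CPM in control LT-HSCs, and to 28.8 to 33.1 CPM in NR ST-HSCs against 35.0 to 36.4 CPM in control ST-HSCs. The 7 erythroid markers summed to 44.1 to 58.0 CPM in LT-HSCs and 14.9 to 21.6 CPM in ST-HSCs, and Hba-a2 was at 0 in all NR LT-HSC and control ST-HSC libraries. Most of the LT-HSC sum was Hbb-bt, at 37.1 to 52.7 CPM in LT-HSCs against 7.91 to 13.1 CPM in ST-HSCs. Klf1 went the other way, at 3.85 to 5.44 CPM in LT-HSCs against 5.87 to 10.01 CPM in ST-HSCs. With NR the megakaryocyte sums were lower and Procr was higher in both cell types. In ST-HSCs the myeloid sums were higher and the lymphoid sums and Slamf1 lower with NR. In LT-HSCs Flt3 was lower with NR. The part of these differences in the sirtuin results was not tested.

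All 7 sirtuins were detected in every library, and their order per exonic length was the same in 12 of 12 libraries. Per kilobase of exons, Sirt7, a nucleolar and chromatin enzyme, was the highest at 23.5 ± 1.76 CPM (SD, n = 12). Sirt3, the main mitochondrial deacetylase, was at 15.4 ± 0.967 CPM per kilobase, and the cytosolic tubulin deacetylase Sirt2 at 13.6 ± 0.964 CPM per kilobase. Sirt3 and Sirt2 overlapped in their ranges over the 12 libraries, while on this scale Sirt7 overlapped with neither. The mitochondrial enzyme Sirt4 followed at 7.24 ± 1.13 CPM per kilobase, and Sirt6, a chromatin deacetylase tied to DNA repair, at 5.18 ± 0.769 CPM per kilobase, and these ranges overlapped each other. Sirt5, the mitochondrial enzyme that removes succinyl, malonyl and glutaryl groups, was at 2.98 ± 0.430 CPM per kilobase. Sirt1, the best studied nuclear deacetylase, was the lowest at 1.41 ± 0.245 CPM per kilobase, and the Sirt7 mean was 16.7-fold higher. Neither Sirt5 nor Sirt1 overlapped with its neighbour in the order. With the longest single transcript as the length, Sirt7 overlapped with Sirt2 (31.4 to 41.1 against 28.9 to 36.0 CPM per kilobase), Sirt2 came before Sirt3, and Sirt6 overlapped with Sirt5.

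**Figure D1:**
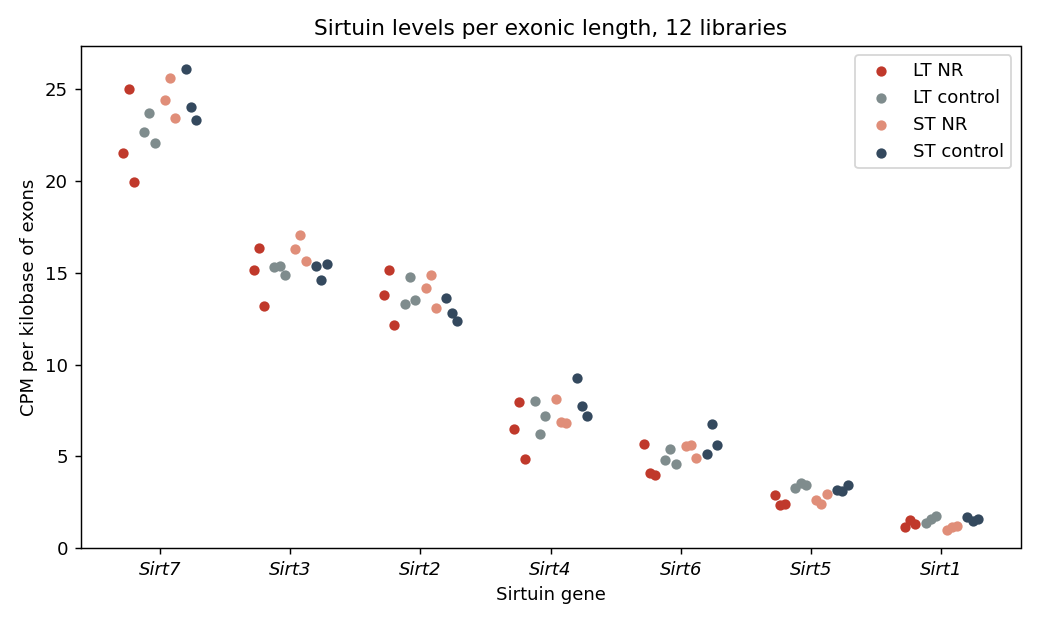
Level of each sirtuin gene in CPM per kilobase of exons (vertical axis) in each of the 12 libraries (points, coloured by group), with genes from highest to lowest mean. Sirt7 lies highest, with a mean of 23.5, and Sirt1 lowest, with a mean of 1.41, in all 4 groups.

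The spread between libraries differed among the genes. Over all 12 libraries the coefficient of variation of CPM was 17.5% for Sirt1, 15.6% for Sirt4, 14.9% for Sirt6 and 14.4% for Sirt5. It was 7.49% for Sirt7, 7.07% for Sirt2 and 6.28% for Sirt3, which had more counts. Sirt1 rested on 183 to 276 counts per library, and Sirt7 on 2776 to 4555.

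Sirt1 and Sirt5 were lower with NR when averaged over both cell types, and the other 5 sirtuins did not pass the test. With edgeR's quasi-likelihood test, the NR difference averaged over LT-HSCs and ST-HSCs called 2 of 7 sirtuins (28.6%) at an adjusted p under 0.05, both lower, against 24.0% of all 19830 tested genes called and 16.1% called lower. The members' share was thus near the background, and their number is no result about the family. The median sirtuin difference was -0.11 on the log2 scale, against 0.03 for all tested genes and -0.07 for the 10473 with a mean of at least 5 CPM. In bulk RNA, fewer cells that carry a transcript and less of it per cell cannot be told apart.

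Sirt5 had 17.7, 14.5 and 14.8 CPM in NR LT-HSC samples 1, 2 and 3, against 20.1, 21.6 and 21.0 CPM in control LT-HSCs. In ST-HSCs it had 16.2, 14.6 and 18.0 CPM with NR, against 19.2, 19.1 and 21.1 CPM in control. All 6 NR samples lay below all 6 control samples, as for 7.94% of all tested genes. Sirt5 averaged 15.96 ± 1.57 CPM with NR and 20.4 ± 1.04 CPM in control (SD, n = 6 each), a difference of -0.35 ± 0.08 (log2, SE; 95% interval -0.51 to -0.19; edgeR adjusted p = 0.00411). NR cells thus held 0.78 times the control level, with an interval of 0.70 to 0.88. The call held in all 9 other settings, with adjusted p between 0.00313 and 0.0282, and with each of the 12 libraries left out.

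Sirt1 had 6.23, 8.24 and 7.10 CPM in NR LT-HSC samples 1, 2 and 3, against 7.47, 8.60 and 9.41 CPM in control LT-HSCs. In ST-HSCs it had 5.27, 6.06 and 6.32 CPM with NR, against 8.99, 7.83 and 8.46 CPM in control. The groups did not overlap in ST-HSCs, while in LT-HSCs they did, and 5 of 6 NR samples lay below every control sample. Sirt1 averaged 6.54 ± 1.02 CPM with NR and 8.46 ± 0.718 CPM in control (SD, n = 6 each), a difference of -0.38 ± 0.10 (log2, SE; 95% interval -0.60 to -0.16; edgeR adjusted p = 0.0144). NR cells held 0.77 times the control level, with an interval of 0.66 to 0.89. The call was lost without a low-count filter (adjusted p = 0.153) and without the 2 libraries with over 20% of reads in no feature (adjusted p = 0.0524).

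**Figure D2:**
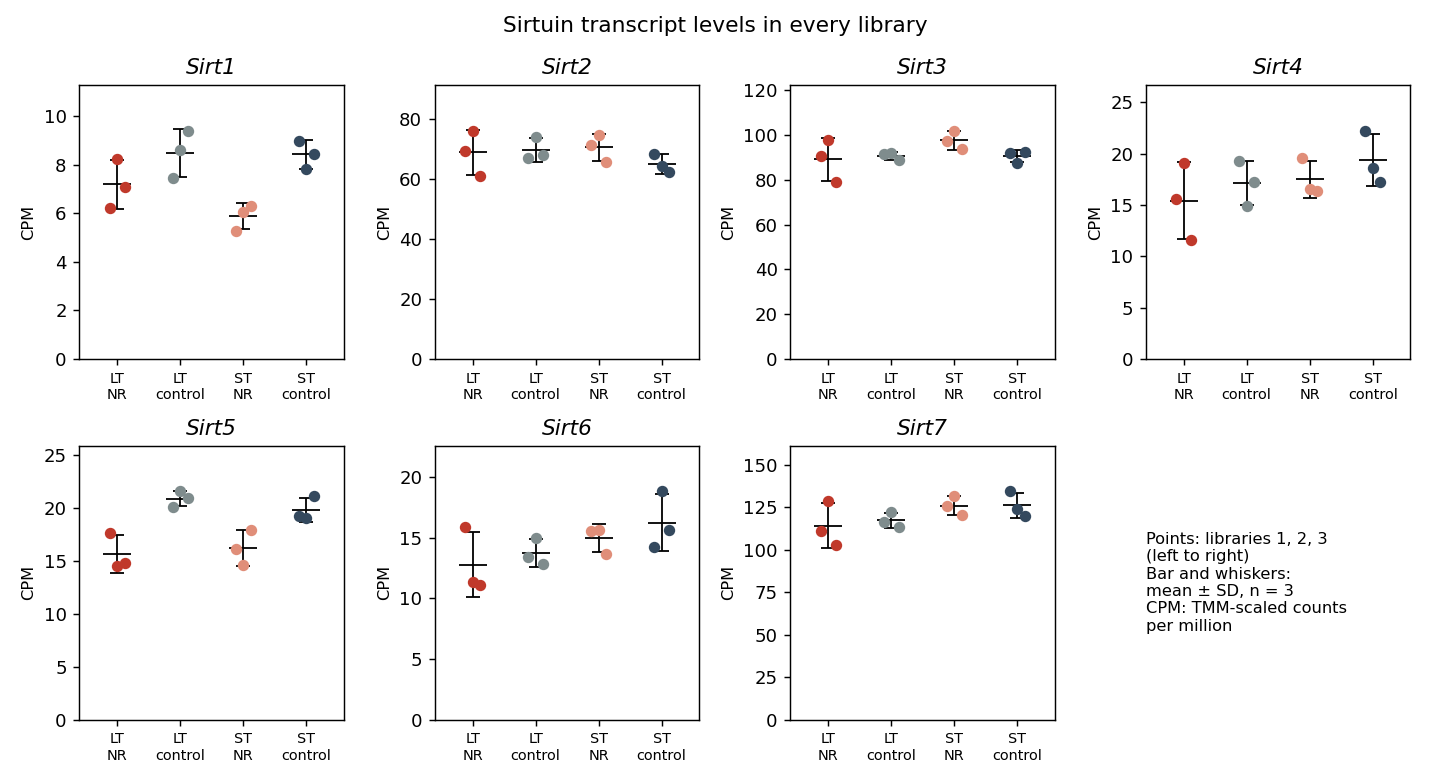
CPM of each sirtuin gene (vertical axes, from 0) in every library, grouped as NR LT-HSCs, control LT-HSCs, NR ST-HSCs and control ST-HSCs, with the mean and SD of 3 samples. The 6 NR points of Sirt5 lie at 14.5 to 18.0 CPM, all below the 6 control points at 19.1 to 21.6 CPM.

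A sirtuin's share of the counts of all 7 sirtuins does not depend on how libraries are scaled. Sirt5 made up 5.43%, 4.07% and 5.16% of them in NR LT-HSCs, against 6.01%, 6.20% and 6.33% in control LT-HSCs. In ST-HSCs it made up 4.61%, 4.04% and 5.37% with NR, against 5.35%, 5.62% and 6.26% in control, where the highest NR sample just passed the lowest control sample. The Sirt1 share was 1.501%, 1.68% and 1.89% in NR ST-HSCs against 2.50%, 2.30% and 2.51% in control ST-HSCs, without overlap. In LT-HSCs the Sirt1 shares overlapped, at 1.91%, 2.32% and 2.47% with NR against 2.23%, 2.47% and 2.84% in control. The summed level of the 7 genes was 336 ± 27.3 CPM with NR and 342 ± 10.4 CPM in control (SD, n = 6 each).

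Among the nuclear enzymes, Sirt6 and Sirt7 did not pass the averaged test. Sirt7 had 111, 129 and 103 CPM in NR LT-HSCs, against 117, 122 and 114 CPM in control LT-HSCs. In ST-HSCs it had 126, 132 and 121 CPM with NR, against 134, 124 and 120 CPM in control. Its groups overlapped in both cell types, and its averaged difference was -0.02 ± 0.06 (log2, SE; 95% interval -0.15 to 0.10; edgeR adjusted p = 0.849). Sirt6 ranged over 11.1 to 15.8 CPM with NR and 12.8 to 18.8 CPM in control, a difference of -0.11 ± 0.11 (interval -0.34 to 0.12; edgeR adjusted p = 0.563).

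The cytosolic enzyme Sirt2 ranged over 61.3 to 76.3 CPM with NR and 62.3 to 74.3 CPM in control, a difference of 0.05 ± 0.06 (log2, SE; interval -0.08 to 0.18; edgeR adjusted p = 0.654). Of the mitochondrial enzymes besides Sirt5, Sirt4 ranged over 11.6 to 19.5 CPM with NR and 14.9 to 22.2 CPM in control, a difference of -0.15 ± 0.12 (interval -0.41 to 0.11; edgeR adjusted p = 0.464). Sirt3 ranged over 79.0 to 102 CPM with NR and 87.4 to 92.3 CPM in control, a difference of 0.04 ± 0.05 (interval -0.07 to 0.16; edgeR adjusted p = 0.675). With only genes of at least 5 CPM in the fit, Sirt2 and Sirt3 were called higher with NR (log2 0.12 and 0.11, edgeR adjusted p = 0.0427 and 0.0294). Of the 3 mitochondrial enzymes, Sirt5 alone was called in the averaged test with the standard filter.

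**Figure D3:**
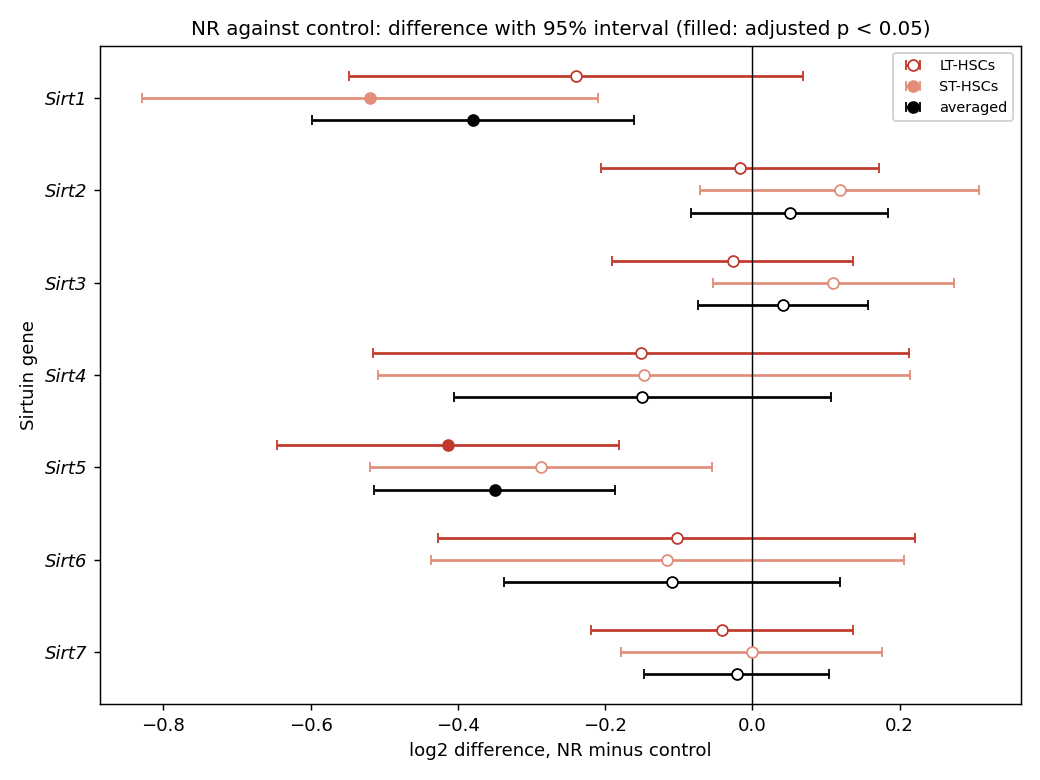
Log2 difference, NR minus control, of each sirtuin gene (rows) for LT-HSCs, ST-HSCs and their average, with 95% intervals and filled points where the edgeR adjusted p was under 0.05. Filled points are Sirt5 in LT-HSCs (-0.41), Sirt1 in ST-HSCs (-0.52) and both genes in the average.

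Within LT-HSCs, Sirt5 was the only sirtuin called, and it fell with NR. It averaged 15.7 ± 1.76 CPM in NR LT-HSCs and 20.9 ± 0.721 CPM in control LT-HSCs (SD, n = 3 each), a difference of -0.41 ± 0.11 (log2, SE; interval -0.65 to -0.18; edgeR adjusted p = 0.0272). That is 1 of 7 sirtuins (14.3%), against 9.96% of all tested genes called and 7.58% called lower. DESeq2 and limma-voom each called 1 sirtuin. All 7 differences were below 0, though those of Sirt2, Sirt3 and Sirt7 were above 0 with relative log expression or upper-quartile factors, and the 6 that were not called ran from -0.24 for Sirt1 to -0.02 for Sirt2. No test compared Sirt5 with the other sirtuins. The Sirt5 call did not hold with relative log expression factors (adjusted p = 0.0618), upper-quartile factors (0.0631), no low-count filter (0.0653) or without the 2 libraries over 20% (0.148). It was also lost without NR LT-HSC sample 2 (adjusted p = 0.162) or 3 (0.10) and without control LT-HSC sample 1 (0.0552), 2 (0.0938) or 3 (0.0750).

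Within ST-HSCs, Sirt1 was the only sirtuin called, and it fell with NR. It averaged 5.88 ± 0.548 CPM in NR ST-HSCs and 8.43 ± 0.578 CPM in control ST-HSCs (SD, n = 3 each), a difference of -0.52 ± 0.14 (log2, SE; interval -0.83 to -0.21; edgeR adjusted p = 0.0240). That is 1 of 7 sirtuins (14.3%), against 16.9% of all tested genes called and 11.1% called lower. Sirt5 averaged 16.2 ± 1.68 CPM with NR and 19.8 ± 1.13 CPM in control, a difference of -0.29 ± 0.11 (interval -0.52 to -0.06) that was not called (edgeR adjusted p = 0.0906). Its NR and control groups did not overlap. Sirt3 had 97.4, 102 and 93.6 CPM in NR ST-HSCs, against 91.8, 87.4 and 92.3 CPM in control ST-HSCs. Its NR samples were all higher than its control samples, with a difference of 0.11 ± 0.08 (edgeR adjusted p = 0.431). In all, 3 of 7 sirtuins (42.9%) did not overlap between groups in ST-HSCs, against 32.8% of all tested genes. Other settings moved these calls: DESeq2 (adjusted p = 0.0268) and upper-quartile factors (0.0275) also called Sirt3 higher, limma-voom also called Sirt5 lower (0.0380), and the fit of genes of at least 5 CPM also called Sirt2 (0.0306) and Sirt3 (0.0165) higher. The Sirt1 call did not hold without a low-count filter (adjusted p = 0.205), without the 2 libraries over 20% (0.0721), without NR ST-HSC sample 1 (0.0960) or 3 (0.0579), or without control ST-HSC sample 1 (0.0889) or 3 (0.0689).

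A call in one cell type and not in the other does not show that the cell types differ, so the difference of the NR effects was tested. It called 0 of 7 sirtuins with edgeR, against 0.0101% of all tested genes, and 0 had an unadjusted p under 0.05, against 6.06%. DESeq2 and limma-voom called 0 as well. The NR effect in ST-HSCs minus that in LT-HSCs was -0.28 for Sirt1 (log2, 95% interval -0.72 to 0.16) and 0.13 for Sirt5 (interval -0.20 to 0.45).

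**Figure D4:**
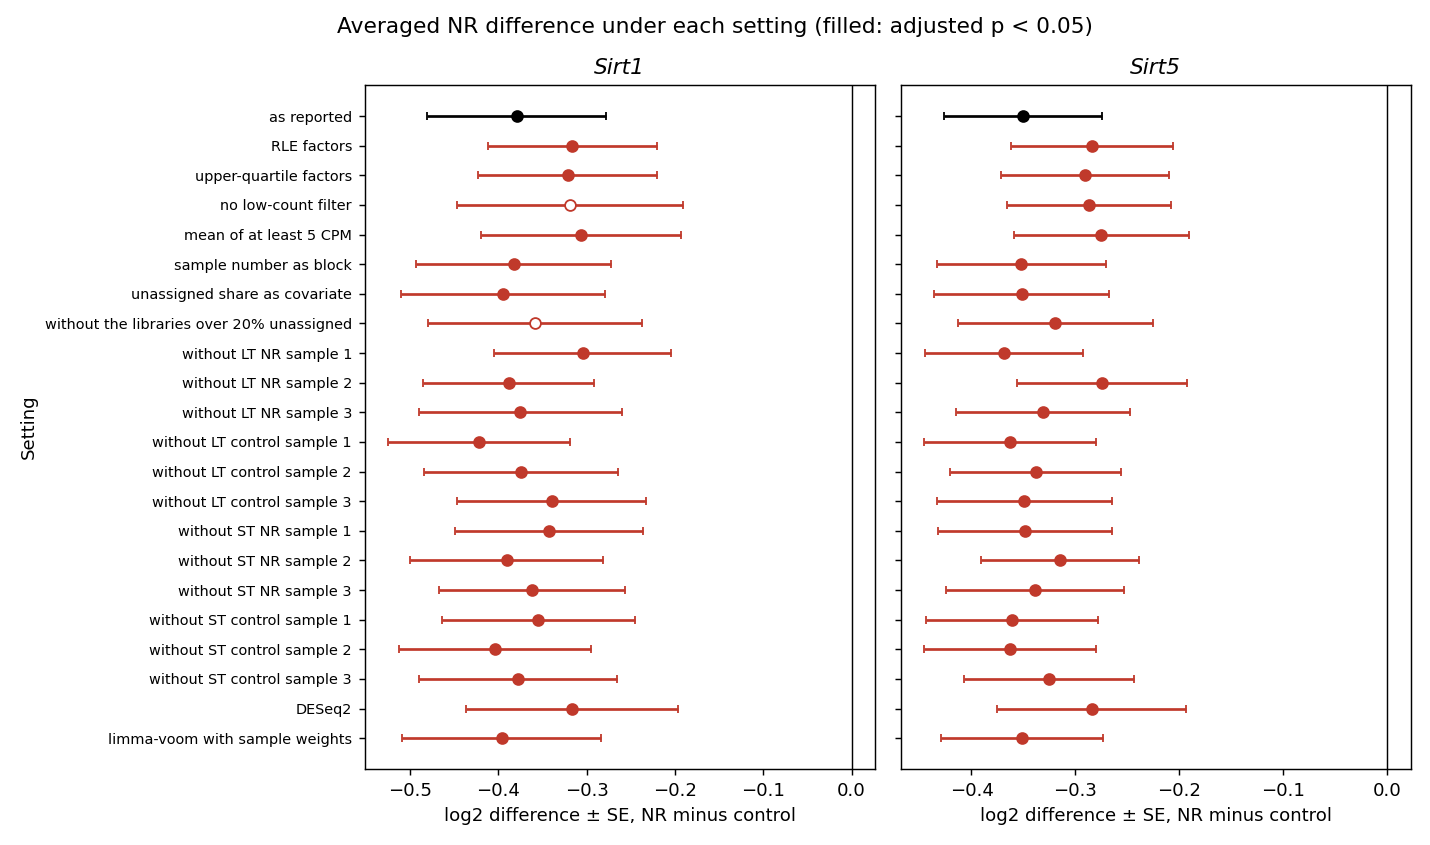
Averaged log2 difference, NR minus control, with its SE for Sirt1 and Sirt5 (panels) as reported, in 9 other settings and with each of the 12 libraries left out (rows); filled points have an adjusted p under 0.05. Sirt5 is filled in every row, and Sirt1 is open with no low-count filter and without the 2 libraries over 20%.

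No sirtuin passed the test between LT-HSCs and ST-HSCs. These comparisons use the same 12 libraries as the NR comparisons. Between these cell types Cd34, Slamf1, Cd48, Ly6a, Flt3, Procr, Hbb-bt, Klf1 and the erythroid sums differed as given above. Under NR, edgeR called 0 of 7, against 6.07% of all tested genes, in control culture 0 of 7, against 5.01%, and averaged over treatments 0 of 7, against 10.6%. DESeq2 and limma-voom also called 0 in each. At an unadjusted p under 0.05 there were 0 under NR (16.9% of all tested genes), 0 in control culture (14.9%) and 1 averaged over treatments (21.3%), which was Sirt6.

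Sirt6 had 15.8, 11.4 and 11.1 CPM in NR LT-HSCs and 13.4, 15.01 and 12.8 CPM in control LT-HSCs. In ST-HSCs it had 15.6, 15.7 and 13.6 CPM with NR and 14.3, 18.8 and 15.6 CPM in control. It averaged 13.3 ± 1.91 CPM in LT-HSCs and 15.6 ± 1.78 CPM in ST-HSCs (SD, n = 6 each), and the groups overlapped. The difference was -0.23 ± 0.11 (log2, SE; interval -0.46 to -0.0041; unadjusted p = 0.0466, edgeR adjusted p = 0.223), and without NR LT-HSC sample 1 it was called at -0.32 (adjusted p = 0.0494). Sirt7 averaged 116 ± 9.03 CPM in LT-HSCs and 126 ± 5.91 CPM in ST-HSCs, a difference of -0.12 ± 0.06 (edgeR adjusted p = 0.244). Of the settings run, only the fit of genes of at least 5 CPM called it lower in LT-HSCs (adjusted p = 0.0378). Sirt1 averaged 7.84 ± 1.14 CPM in LT-HSCs and 7.15 ± 1.48 CPM in ST-HSCs (log2 difference 0.15, interval -0.07 to 0.37). The averaged differences of Sirt2 (0.03), Sirt3 (-0.06), Sirt4 (-0.18) and Sirt5 (0.01) had intervals that included 0.

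**Figure D5:**
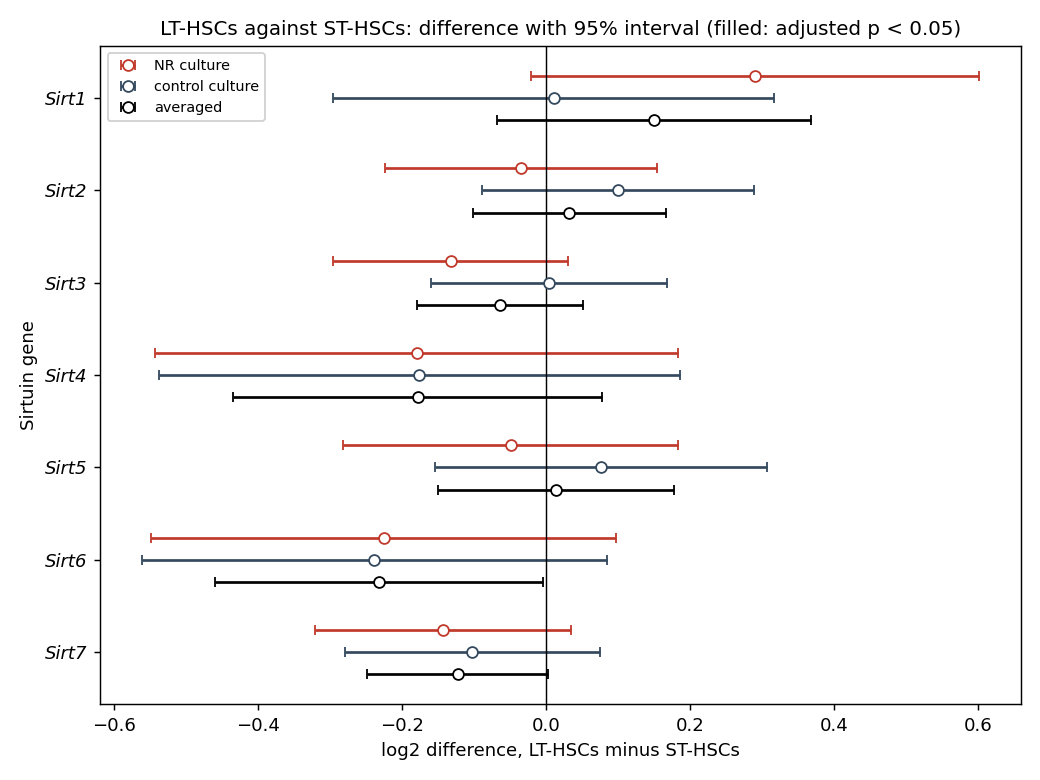
Log2 difference, LT-HSCs minus ST-HSCs, of each sirtuin gene (rows) under NR, in control culture and averaged over both, with 95% intervals. No point is filled, as no edgeR adjusted p was under 0.05, and the averaged Sirt6 value of -0.23 has an interval that ends just below 0.

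The genes around the sirtuins were counted from lists of the NAD pathway and of known sirtuin partners, beside 24.0% of all tested genes called (16.1% lower) and a median log2 difference of 0.03 in the averaged NR comparison. For the 10473 genes with a mean of at least 5 CPM that median was -0.07, the nearer measure for lists of mostly well expressed genes. Of 15 genes that supply NAD, 2 rose, 2 fell and 11 did not pass in the averaged NR comparison. In the 9 other settings 3 to 4 rose and 0 to 3 fell, and with a library left out 2 to 3 rose and 0 to 2 fell. The count that fell stayed at 2 without NR LT-HSC sample 1 or NR ST-HSC sample 2, was 0 without NR ST-HSC sample 3, and was 1 without any of the other 9 libraries. Nmrk1, the kinase that starts NAD synthesis from NR, averaged 15.3 ± 1.87 CPM with NR and 10.8 ± 1.28 CPM in control (log2 0.50 ± 0.11; edgeR adjusted p = 0.00326). Naprt, which uses nicotinic acid, rose by 0.45 (log2), and the NMN adenylyltransferase Nmnat3, which makes NAD in mitochondria, and the NAD kinase Nadk fell by 0.24 and 0.14. The median log2 difference of the 15 genes was 0.22, and they include genes near the floor, such as Nmrk2 (at most 0.777 CPM) and Pnp (at most 1.24 CPM). In ST-HSCs Naprt and Nmrk1 rose, by 0.71 and 0.56, but 1 NAD supply gene rose there without NR ST-HSC sample 1, control ST-HSC sample 1 or 3, or the 2 libraries over 20%, and in the fit of only the 2 ST-HSC groups. In LT-HSCs Nmnat3 fell by 0.32. Nmnat3 was the 1 NAD supply gene called lower in LT-HSCs. That count was 0 with no low-count filter, without the 2 libraries over 20%, and without any 1 of NR LT-HSC samples 2 and 3 or control LT-HSC samples 1, 2 and 3, and it was 2 with the sample number as a block.

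Of 17 other NAD-consuming enzymes, 6 rose, 1 fell and 10 did not pass in the averaged NR comparison, with a median log2 difference of 0.19. This list too includes genes near the floor, such as Bst1 (at most 1.07 CPM) and Sarm1 (at most 1.59 CPM). The 1 that fell was Parp1, which builds ADP-ribose chains at DNA breaks, at 328 ± 19.4 CPM with NR and 487 ± 25.3 CPM in control (log2 -0.57). Among those that rose were the tankyrase Tnks2 (log2 0.49), Parp9 (0.31) and Parp8 (0.31).

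Of 22 regulators and substrates of the nuclear and cytosolic sirtuins, 21 were tested, and Nlrp3 was not. In the averaged NR comparison 3 rose, 7 fell and 11 did not pass, with a median log2 difference of -0.14. The SIRT1 substrates Xrcc6 (log2 -0.36), which encodes the DNA repair protein Ku70, and Suv39h1 (-0.28), a histone methyltransferase, fell, as did the acetyltransferase Kat2a (-0.37) and the growth regulator Myc (-0.33). Ccar2, an inhibitor of SIRT1, was at 231 ± 19.6 CPM in NR ST-HSCs and 307 ± 7.90 CPM in control ST-HSCs (log2 -0.41; edgeR adjusted p = 0.00271), while the glycolytic enzyme Pkm rose by 0.48 there.

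The substrates of the mitochondrial sirtuins were mostly lower with NR. Of 22 such genes 20 passed the filter on low counts and were tested, and 1 rose, 13 fell and 6 did not pass in the averaged NR comparison. Shmt2, a serine-to-glycine enzyme that SIRT5 acts on in human cells, averaged 230 ± 15.1 CPM with NR and 464 ± 30.7 CPM in control (log2 -1.01 ± 0.05). The SIRT3 substrates Idh2 (log2 -0.47) and Got2 (-0.42) fell, and so did Mccc2 (-0.81), a leucine-breakdown enzyme subunit. The list's median was -0.24. In LT-HSCs 10 of the 20 fell and 0 rose, where 7.58% of all tested genes were called lower, and in ST-HSCs 12 fell and 0 rose, where 11.1% were called lower. The LT-HSC count was 5 without NR LT-HSC sample 1 or control LT-HSC sample 2, and 6 without NR LT-HSC sample 2 or 3. It was also 6 without the 2 libraries over 20% and with no low-count filter. The ST-HSC count was 7 with no low-count filter. None of these lists was tested as a set, and none is shown to differ from other genes.

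The zinc-dependent histone deacetylases, the other deacetylase family, use no NAD. Of these 11 genes, 1 rose, 4 fell and 6 did not pass in the averaged NR comparison, with a median log2 difference of -0.16. Hdac8 (log2 -0.32), Hdac2 (-0.30) and Hdac1 (-0.23) fell, and Hdac10 (0.19) rose. Between LT-HSCs and ST-HSCs averaged over treatments, Hdac9 was higher in LT-HSCs at 22.4 CPM against 11.4 CPM in ST-HSCs (log2 0.96). In the same comparison the NADase Cd38 (log2 1.05) and Naprt (0.73) were also higher in LT-HSCs, and Parp8 (-0.43) was lower.

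The genes whose log2 CPM followed a sirtuin most closely over the 12 libraries were picked among 9999 genes of at least 5 CPM. Predicted genes were left out by the form of their names, a rule that did not catch CAAA01118383.1. The points share their libraries, depth and share of unassigned reads, so the correlations describe these libraries only. Closest to Sirt1 were Nenf (Pearson r = 0.95), Mthfsd (0.94) and Tango6 (0.94), and closest to Sirt5 were Hlcs (0.95), Prr5 (0.95) and Pinx1 (0.91). All 6 were also lower with NR in the averaged comparison, from -0.36 for Nenf to -0.55 for Prr5 (log2), which the choice of genes that follow Sirt1 or Sirt5 over the same libraries largely fixed. Closest to Sirt7 were Sharpin (r = 0.96), Dcun1d5 (0.94) and Klhdc2 (0.94), and closest to Sirt2 were Crlf3, Yipf1 and Rab2a (each 0.94). For Sirt3 they were Rbm43 (0.93) and Rbm7 (0.91), for Sirt4 CAAA01118383.1 (0.92), Ilkap (0.91) and Frrs1 (0.89), and for Sirt6 Prpf8 (0.91), Casp8ap2 (0.90) and Gatad2b (0.90).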

How the data were processed

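Values deposited by the authors are raw read counts per Ensembl gene, 1 column per library, with 0 columns not used. Libraries were made from 2.5 ng RNA with SMART-seq v4 and Nextera XT, per the labels' protocols. The submitters' processing notes name FastQC 0.11.2, STAR 2.5.0b and HTSeq 0.6.1, a read checker, an aligner and a read counter. The sources used here do not give the genome build, annotation release or strand setting. Reads that HTSeq gave to no gene (no feature 8.69% to 28.5%, ambiguous 3.30% to 4.38%) stayed out of library sizes and tests. GENCODE M21 gave a symbol to 53360 of 53465 identifiers, and gene positions and lengths. RefSeq (GRCm38.p6) gave the upstream sequences. Motif letters were searched in the 250 bases before each start.

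The main test was edgeR 4.0.16 (R 4.3.3; glmQLFit and glmQLFTest, two-sided) on all 12 samples with 4 group means and TMM factors, on genes kept by filterByExpr (by group, at least 10 counts and a total of at least 15). Genes were called at a Benjamini-Hochberg adjusted p under 0.05 over all 19830 tested genes. CPM values use TMM library sizes. The SE of a log2 difference is its size divided by the square root of F. The biological coefficient of variation was 0.402, and no pair of libraries in a group agreed within sampling noise (chi-square per degree of freedom 6.30 to 37.2).

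Other settings were DESeq2 1.42.0, limma-voom (limma 3.58.1, sample weights), factors by relative log expression or by the upper quartile, no low-count filter, and only genes with a mean of at least 5 CPM. Further fits used only the 2 groups of a comparison, a block for the sample number, or the unassigned share as a covariate. Others left out the 2 libraries over 20%, or each library in turn with the tested genes kept. The averaged comparisons and the difference of effects use all 4 groups, so the fit of only the groups compared was not run for them.

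The labels do not say what a shared sample number means. The deviations of same-numbered samples from their group means correlated at over 0.1 in all 3 pairs of NR and control LT-HSCs (0.491, 0.240 and 0.503) and in all 3 pairs of NR LT-HSCs and NR ST-HSCs (0.628, 0.332 and 0.601), so the numbers were taken to pair the samples in these 2 comparisons, from the data and not from the labels. The main test and its p-values and intervals do not use this pairing, which entered only the fit with the number as a block. Sample 3 also had the largest share of reads in no feature in NR LT-HSCs (28.5%), NR ST-HSCs (26.2%) and control LT-HSCs (16.0%). Whether the correlations reflect that share was not tested.

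All 7 sirtuins are named in every comparison. Up to 4 called genes with the smallest p are named from each list and comparison, and the 3 genes with the highest correlation to each sirtuin (log2 CPM, prior count 2). Some of the genes these rules cover are not reported here. The members and lists were chosen with earlier results of these data known.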

Additional observations from a re-analysis of the deposited data

How the results depend on the processing

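In LT-HSCs 1 sirtuin was called, but 0 with upper-quartile factors, relative log expression factors, no low-count filter or without the 2 libraries over 20% of reads in no feature, and 0 to 1 with a library left out. In ST-HSCs 1 was called, but 2 with upper-quartile factors, DESeq2 or limma-voom, 3 with a mean of at least 5 CPM, 0 with no filter or without the 2 libraries, and 0 to 1 with a library left out. The averaged comparison called 2, but 1 with no filter or without the 2 libraries, 4 with at least 5 CPM, and 2 with each library left out. Between LT-HSCs and ST-HSCs averaged over treatments 0 were called, but 1 with at least 5 CPM, and 0 to 1 with a library left out. The difference of NR effects and LT-HSCs against ST-HSCs within each treatment stayed at 0 in every setting run. The cause was not tested. Among all tested genes, 32.9% of calls of the averaged comparison were higher with NR, against 48.5% with relative log expression factors, in LT-HSCs 23.9% against 37.4%, and in ST-HSCs 34.5% against 51.7%.

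Over all groups, same-numbered samples' deviations correlated at -0.0096 to 0.63, over 0.1 in 13 of 18 pairs, against 6 of 36 pairs of other numbers. Outside the 2 comparisons in which all 3 pairs passed 0.1, the numbers were not taken to pair the samples. Some same-numbered pairs there passed 0.1 as well. For control LT-HSCs with NR ST-HSCs the values of samples 1, 2 and 3 were 0.222, 0.055 and 0.431. With the number as a block, which changed no sirtuin call, 1 sirtuin was called in LT-HSCs, 1 in ST-HSCs, 2 averaged and 0 in the other comparisons.

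With the longest transcript as the length, levels per kilobase were 36.9 for Sirt7, 32.4 for Sirt2, 28.7 for Sirt3, 9.68 for Sirt4, 7.63 for Sirt6, 7.49 for Sirt5 and 1.69 for Sirt1. Of the lists, calls in the averaged NR comparison ranged over 10 to 14 lower for mitochondrial substrates, and over 0 to 3 lower for NAD supply. In LT-HSCs mitochondrial substrates called lower ranged over 6 to 10, and 5 to 8 with a library left out. In ST-HSCs they ranged over 7 to 13, and 8 to 11 with a library left out.

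None of the values that changed sign was called in any setting run. In LT-HSCs the NR difference (log2) of Sirt2, Sirt3 and Sirt7 became 0.035, 0.025 and 0.0094 under relative log expression scaling, 0.031, 0.020 and 0.0061 under upper-quartile scaling, 0.031, 0.021 and 0.0053 with no filter, 0.049, 0.038 and 0.024 with at least 5 CPM, and 0.035, 0.025 and 0.0095 with DESeq2. Sirt7 in ST-HSCs and averaged became 0.074 and 0.042, 0.062 and 0.034, 0.071 and 0.038, 0.077 and 0.050, and 0.074 and 0.042 in the same settings. The Sirt6 difference of effects became 0.0087 with relative log expression factors and DESeq2 and 0.012 with no filter. With the unassigned share as a covariate, Sirt2 and Sirt3 in LT-HSCs became 0.029 and 0.0081, Sirt7 in ST-HSCs 0.0024, the Sirt4 difference of effects -0.057 and Sirt3 between LT-HSCs and ST-HSCs in control culture -0.033. With limma-voom, Sirt2 in LT-HSCs became 0.0023, Sirt7 in ST-HSCs 0.038 and Sirt5 between LT-HSCs and ST-HSCs under NR 0.041. Without the 2 libraries over 20%, Sirt2, Sirt3, Sirt4, Sirt6 and Sirt7 in LT-HSCs became 0.080, 0.071, 0.030, 0.013 and 0.045, Sirt6 and Sirt7 in ST-HSCs 0.022 and 0.10, and Sirt4, Sirt6 and Sirt7 averaged 0.0017, 0.018 and 0.074. There the differences of effects of Sirt4 and Sirt6 became -0.057 and 0.0097, and Sirt5 between LT-HSCs and ST-HSCs under NR 0.042.

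With a library left out, NR differences in LT-HSCs ran from -0.057 to 0.061 for Sirt2, -0.061 to 0.052 for Sirt3, -0.29 to 0.015 for Sirt4, -0.29 to 0.014 for Sirt6 and -0.10 to 0.028 for Sirt7. In ST-HSCs they ran from -0.20 to 0.022 for Sirt6 and -0.035 to 0.10 for Sirt7, and averaged from -0.038 to 0.039 for Sirt7. Differences of effects ran from -0.16 to 0.21 for Sirt4, -0.10 to 0.24 for Sirt6 and -0.029 to 0.16 for Sirt7. Between LT-HSCs and ST-HSCs in control culture they ran from -0.069 to 0.095 for Sirt1 and -0.021 to 0.019 for Sirt3, under NR from -0.11 to 0.042 for Sirt2 and -0.17 to 0.014 for Sirt5, and averaged from -0.034 to 0.061 for Sirt5.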
